A study of Mus musculus with 6 samples.

Results

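Circular RNAs (circRNAs) of 3 splicing regulator genes, Mbnl1, Srrm2 and Srpk2, were described in mouse hippocampus after chronic unpredictable stress (CUS) and in unstressed controls. A circRNA was taken when its list of host genes held the Ensembl identifier of one of the 3, which gave 9 of the 10652 circRNAs in the deposited table: 1 of Mbnl1, 4 of Srrm2 and 4 of Srpk2. All 9 were exonic and had a single host. The 3 genes were selected on the CUS and Control levels of their circRNAs in these same 6 libraries. Those levels and group differences are therefore given as a description, without p-values for the 9 circRNAs or their host sums.

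The CUS group had 3 hippocampal libraries from adult male C57BL/6J mice put through changing mild stressors, among them restraint, swimming in cold water and a tilted cage, for 4 weeks. The Control group had 3 libraries from mice of the same strain, sex and source. Per the labels the mice were 8 to 10 weeks old when bought. The labels call the samples independent and do not say whether each library came from a single mouse, so the spread between libraries may be partly technical. RNA was selected for poly(A) before library making. Closed rings carry no such tail, and how much of each circRNA this step retained is unknown.

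A circRNA forms by back-splicing, in which the end of an exon is spliced to the start of the same or an earlier exon, and this competes with linear splicing of the same transcript. The 3 hosts act on splicing itself. Mbnl1 encodes a zinc finger protein of the muscleblind family that sets alternative exon choice and is trapped by expanded CUG repeats in myotonic dystrophy, and its Drosophila ortholog promotes the circularisation of an exon of its own transcript. Srrm2 encodes a very large serine- and arginine-rich protein that scaffolds nuclear speckles and belongs to active spliceosomes. Srpk2 encodes a kinase, abundant in brain, that phosphorylates the serine- and arginine-rich (SR) splicing proteins and controls where in the cell they reside.

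On GRCm38, Mbnl1 lies on the plus strand of chromosome 3 (60472830 to 60629750, 157 kb), Srrm2 on the plus strand of chromosome 17 (23790532 to 23824741, 34.2 kb) and Srpk2 on the minus strand of chromosome 5 (23503264 to 23684617, 181 kb). Their longest coding transcripts by exon number have 10, 15 and 15 exons in GENCODE vM21. These are positions of the genes, since the table was used without circRNA coordinates, and no circRNA sequence is shown for the same reason. Srpk2 overlaps Kmt2e, a protein-coding gene on the opposite strand that is listed as host of 4 other circRNAs. Srrm2 overlaps Elob, which had none. No source used here states how circRNAs were assigned to strands.

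The deposited log10 values were turned into levels by taking 10 to each value, with 0 kept at 0. In each library the levels were whole multiples of a library-specific step and began at 17 steps. No source used here says what a step stands for or how many reads lie behind a value, so the depth is unknown, and 0 means only that no value was listed. The inverse of the step, relative to the library with the smallest step, ran from 81.9% to 89.8% in CUS and from 90.8% to 100% in Control, and whether it follows sequencing depth is unknown. CUS libraries held 3991 to 4273 circRNAs above 0, and Control libraries 4329 to 4606. Of all values in the table, 39.1% were above 0 in CUS and 42.1% in Control.

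The 9 circRNAs were above 0 in 5 of 27 values in CUS and in 19 of 27 values in Control. The gap came from Srrm2 and Srpk2. In CUS, values came from mmu_circRNA006700 of Mbnl1 and from mmu_circRNA007867 and mmu_circRNA007868 of Srpk2, and no Srrm2 circRNA had one. Each of the 9 had a value in at least 1 Control library. Because the tissue was measured in bulk, fewer cells of a type and less RNA per cell cannot be told apart.

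**Figure D1:**
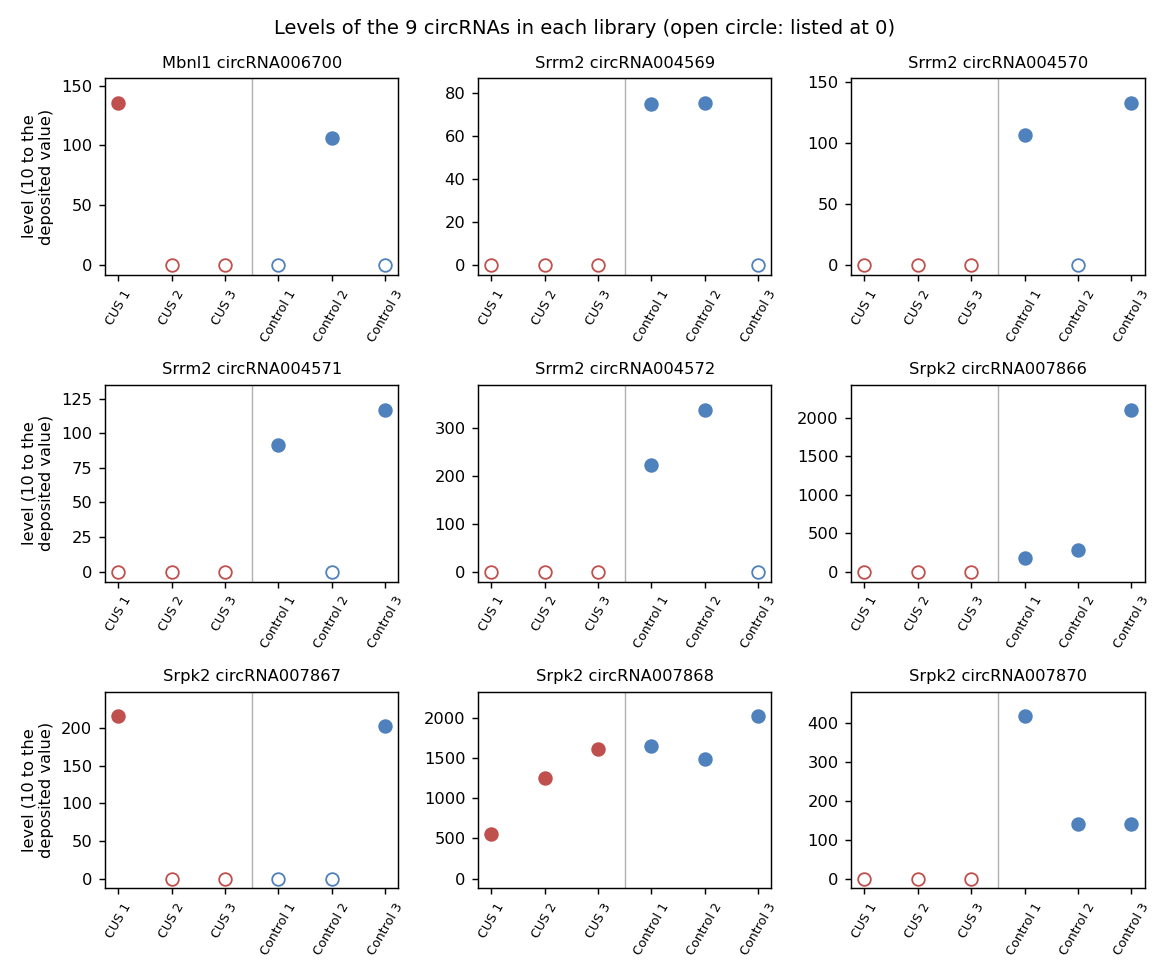
Level (10 to the deposited value, linear axis, separate scale in each panel) of each of the 9 circRNAs in CUS replicates 1 to 3 (red) and Control replicates 1 to 3 (blue), with open circles for values listed at 0. Only mmu_circRNA007868 of Srpk2 has a filled circle in all 6 libraries, and the 4 Srrm2 panels have filled circles in Control libraries only.

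Srpk2 had the highest levels of the 3 hosts. CircRNA lengths are not known here, so levels and ranks are of the deposited values and not per length. The summed Srpk2 level ranked 211 among 4483 hosts by the mean over the 6 libraries, Srrm2 ranked 2251 and Mbnl1 4229. Srpk2 and Srrm2 had 4 circRNAs each, a number that 80.0% of hosts did not reach, although Srrm2 is the shorter gene. Among the 930 hosts of 20 to 50 kb, which include Srrm2, 5.27% had 4 or more circRNAs. Among the 792 hosts of 100 to 200 kb, which include Srpk2 and Mbnl1, 32.1% did, and 34.5% had 1 as Mbnl1 does. In that length class 93.4% of hosts had a lower mean sum than Srpk2, and 3.28% a lower one than Mbnl1.

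Most of the Srpk2 signal came from mmu_circRNA007868. Its level was 551, 1253 and 1606 in CUS replicates 1 to 3, against 1644, 1492 and 2016 in Control replicates 1 to 3. The groups overlapped, since CUS replicate 3 was above Control replicate 2, and CUS replicate 1 was the lowest of all. CUS libraries averaged 1137 ± 537 and Control libraries 1717.5 ± 269 (SD, n = 3 each), with a fitted log2 difference of -0.69 and an SE of 0.60. Without CUS replicate 1 the difference was -0.26. By its mean it ranked 141 among all circRNAs in the table, and it was 1 of the 804 (7.55%) with a value in all 6 libraries. It made up 71.9%, 100% and 100% of the Srpk2 sum in CUS and 73.2%, 77.6% and 45.1% in Control.

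Of the other 3 Srpk2 circRNAs, 2 had values in Control libraries only. mmu_circRNA007866 was listed at 0 in all 3 CUS libraries and was at 183, 289.9 and 2109 in Control. Control replicate 3 was far above the other Control libraries, and there mmu_circRNA007866 was the most abundant Srpk2 circRNA, with 47.2% of the sum. mmu_circRNA007870 was also listed at 0 in all 3 CUS libraries and was at 418, 141 and 141 in Control. mmu_circRNA007867 had a level of 215 in CUS replicate 1 and 202 in Control replicate 3 and was listed at 0 in the other 4 libraries, so it was seen once in each group at nearly the same level. No fold is given for the circRNAs listed at 0 throughout CUS.

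The Srpk2 sums were 767, 1253 and 1606 in CUS, all below the Control sums of 2245, 1924 and 4468. The fitted log2 difference was -1.18 with an SE of 0.52, and -0.82 with an SE of 0.62 without Control replicate 3. Of the difference in mean level of -1670.3, mmu_circRNA007866 held 51.5%, mmu_circRNA007868 34.8% and mmu_circRNA007870 14.0%. This order rests on Control replicate 3: without it the difference was -876, and the shares were 27.0% for mmu_circRNA007866, 49.2% for mmu_circRNA007868 and 31.9% for mmu_circRNA007870, so mmu_circRNA007868 held the most. The share of mmu_circRNA007868 was 19.9% without CUS replicate 1, and that of mmu_circRNA007870 was 7.10% without Control replicate 1. These shares without single libraries were added after the data were seen. With mmu_circRNA007866 taken out of the sum, CUS libraries were as before and averaged 1209 ± 422, and Control libraries were at 2062, 1634 and 2359 and averaged 2018 ± 365 (SD, n = 3 each). CUS replicate 3 then lay just under Control replicate 2. The number of Srpk2 circRNAs above 0 was 2, 1 and 1 in CUS and 3, 3 and 4 in Control.

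**Figure D2:**
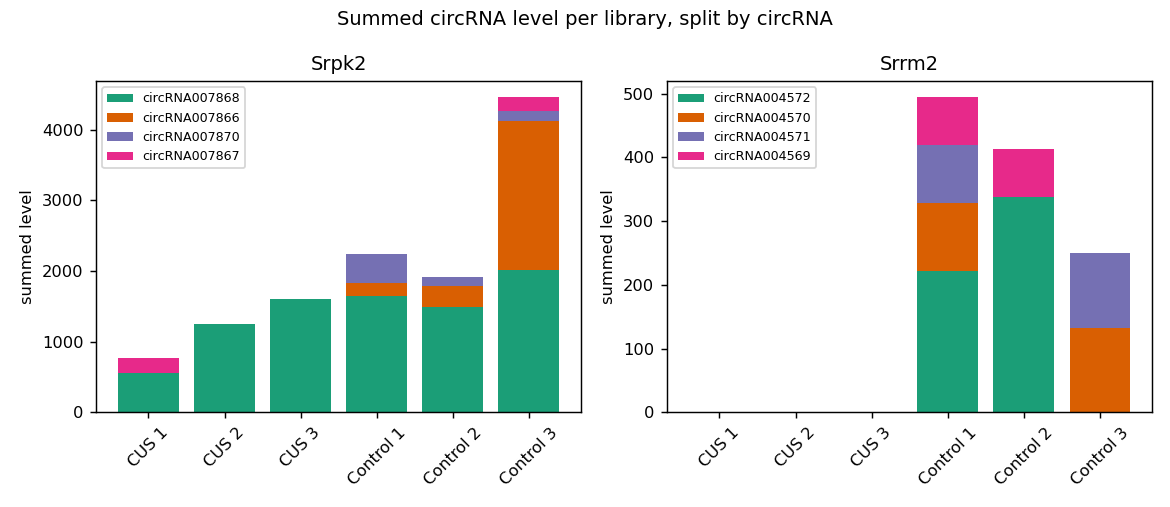
Summed circRNA level (linear axis from 0) of Srpk2 (left) and Srrm2 (right) in each library, with 1 colour for each circRNA. The Srpk2 bars run from 767 to 1606 in CUS and from 1924 to 4468 in Control, where mmu_circRNA007866 adds 2109 in replicate 3, and Srrm2 has no bar in CUS.

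All 4 Srrm2 circRNAs were listed at 0 in every CUS library, and each had a value in 2 of the 3 Control libraries. mmu_circRNA004572 was the most abundant, at 222, 338 and 0 in Control replicates 1 to 3. mmu_circRNA004569 was at 74.9, 75.6 and 0. mmu_circRNA004570 was at 106, 0 and 133, and mmu_circRNA004571 at 91.7, 0 and 117. Control replicate 1 therefore held all 4, while replicates 2 and 3 held 2 each and shared none. The Srrm2 sum was 0 in all 3 CUS libraries and 495, 413 and 250.0 in Control. mmu_circRNA004570 and mmu_circRNA004571 were above 0 in the same libraries and differed by 6 steps in both, at 44 and 38 steps in Control replicate 1 and 50 and 44 steps in Control replicate 3. Whether they share reads was not tested.

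The Mbnl1 circRNA, mmu_circRNA006700, had a level of 136 in CUS replicate 1 and 106 in Control replicate 2 and was listed at 0 in the other 4 libraries. It was thus seen once in each group, and the groups overlapped. It fell short of the minimum of 3 libraries above 0 and was not fitted. Of the circRNAs in the table, 9.78% had a lower mean.

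Groups were compared across the whole table with limma on log2(level + 45.5), where the added constant is the middle of the 6 libraries' lowest levels above 0. Of the 9 circRNAs, 3 were above 0 in at least 3 libraries and entered the fit, all of them from Srpk2. mmu_circRNA007866 and mmu_circRNA007870, like the Srrm2 host sum, met this filter through Control libraries alone. Of 3896 circRNAs tested, 0 had an adjusted p under 0.05 (0.0%), with 234 at an unadjusted p under 0.05. Of 2653 host sums tested, Srpk2 and Srrm2 included, 0 passed (0.0%), with 144 at an unadjusted p under 0.05. Being listed at 0 in all CUS libraries and above 0 in all Control libraries held for mmu_circRNA007866 and mmu_circRNA007870, and for 2.41% of the circRNAs tested. The reverse held for 1.87%. By host sum the same pattern held for Srrm2 and for 1.24% of hosts tested. Srpk2 and Srrm2 were among the 5.2% of hosts tested in which every CUS library was under every Control library, while 5.84% of hosts had every CUS library above. Since this contrast was known when the hosts were chosen, nothing is read from these counts.

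How often a value at such levels was missing from another library was measured over the whole table. The number of circRNAs per step dropped above 132 steps in each of the 6 libraries. It averaged 16.7 to 20.7 in CUS and 18.3 to 22.5 in Control over steps 118 to 132, and 8.80 to 9.00 in CUS and 8.07 to 8.53 in Control over steps 133 to 147. Both Mbnl1 values (46 steps in CUS and 42 in Control), 7 of the 8 Srrm2 values and 6 of the 14 Srpk2 values lay in the range of 17 to 132 steps, as did 55.5% to 57.9% of values above 0 in CUS libraries and 54.4% to 56.2% in Control libraries. This range was chosen after the values were seen.

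A circRNA in that range in a given CUS library was listed at 0 in another CUS library in 56.5% of cases. One in that range in a Control library was listed at 0 in a CUS library in 58.9% of cases and in another Control library in 53.7%. From CUS to Control libraries the share was 54.8% in this range and 6.00% from 529 to 1056 steps. From 133 to 264 steps the shares were 57.6% between CUS libraries, 59.7% from Control to CUS and 56.2% between Control libraries. From 265 to 528 steps they were lower, at 29.8% between CUS libraries, 32.1% from Control to CUS and 29.1% between Control libraries. From 529 to 1056 steps they were 6.12% between CUS libraries, 7.55% from Control to CUS and 6.15% between Control libraries. mmu_circRNA007866 lay in the top of these ranges, at 793 steps, in Control replicate 3 only, and at 76 and 115 steps in the other Control libraries. mmu_circRNA007870 was at 173, 56 and 53 steps in Control, and the Srrm2 circRNAs lay between 30 and 134 steps. mmu_circRNA007868 was at 187, 466 and 591 steps in the CUS libraries and 681, 592 and 758 steps in the Control libraries.

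**Figure D3:**
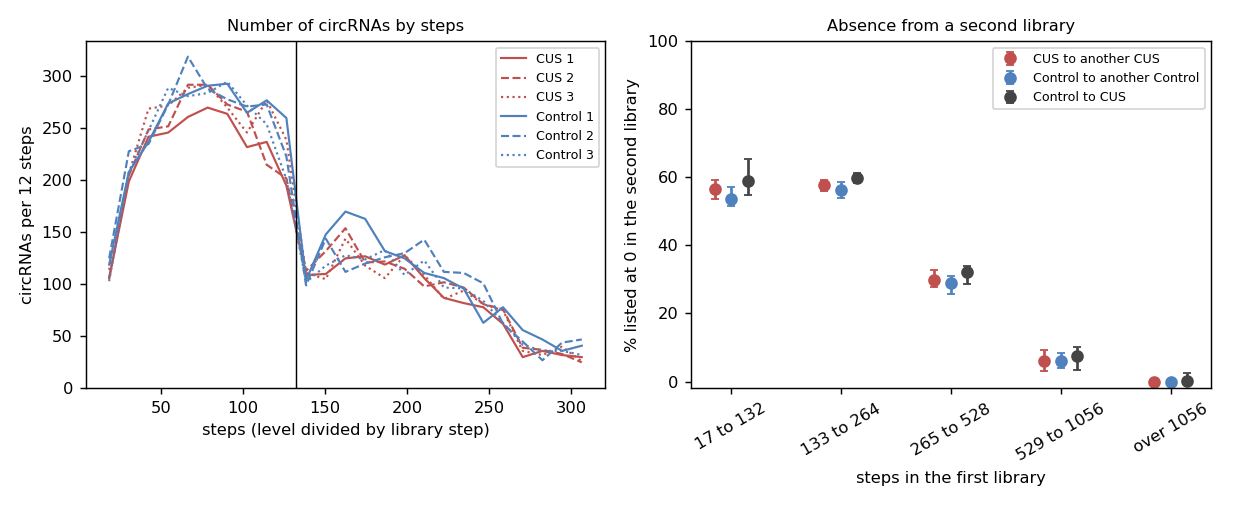
Left, the number of circRNAs per 12 steps against level in steps for each library (red CUS, blue Control), with a line at the drop above 132 steps. Right, the percentage of circRNAs listed at 0 in a second library against their steps in the first, pooled over pairs of CUS libraries (red), pairs of Control libraries (blue) and pairs from Control to CUS (black), with bars from the lowest to the highest pair. It lies between 53.7% and 59.7% up to 264 steps and between 6.12% and 7.55% from 529 to 1056 steps.

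Paralogs gave little to set beside the 3 hosts. Mbnl2, the muscleblind paralog most active in brain splicing, had 1 circRNA, whose level was 1412, 476 and 981 in CUS replicates 1 to 3 and 985, 1293 and 1394 in Control replicates 1 to 3. The Mbnl2 groups overlapped (log2 difference -0.45, SE 0.67, limma adjusted p = 0.922). Srrm3, a neuronal relative of Srrm2, had 1 circRNA, with a value of 461 in Control replicate 2 and 0 in the other 5 libraries. No circRNA of Mbnl3, Srrm1, Srrm4, Srpk1 or Srpk3 was in the table used.

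Other splicing genes were taken from 6 lists of 176 genes in all, without the 3 hosts: MBNL and CELF proteins, SR kinases, SR and SR-related proteins, neuronal splicing regulators, hnRNPs and spliceosome components. Of these, 65 had a circRNA and 32 entered the fit. By limma 0 were called higher and 0 lower, with 1 at an unadjusted p under 0.05, while fitted values were above 0 for 17 and below 0 for 15. Their median log2 difference was 0.02, beside -0.06 over all hosts tested. Every CUS library was under every Control library for 2 of the 32, Raver2 and Luc7l2, and above for 1, Celf2, beside 5.2% and 5.84% of all hosts tested. Each of the 32 had a value in at least 1 library of both groups.

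The most abundant of these hosts showed no separation of the groups. Acin1, which encodes a component of the exon junction complex periphery, was at 1397, 2488 and 2593 in the CUS libraries and 3698, 1644 and 1447 in the Control libraries. Elavl3, a neuronal RNA-binding protein gene, was at 1453, 3913 and 699 in the CUS libraries and 3575, 2728 and 596 in the Control libraries. Qk, the gene of the RNA-binding protein Quaking, which promotes circRNA formation in human cells, was at 1524, 1931 and 1348 in the CUS libraries and 932, 2733 and 1120 in the Control libraries. All 3 ranges overlapped, and limma adjusted p-values were 0.955 or more.

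The hosts of smallest p were no closer to the threshold than a limma adjusted p of 0.782. On the higher side Rbfox3, a neuronal splicing factor gene known as NeuN, was at 1595, 118 and 3338 in the CUS libraries and 1429, 0 and 0 in the Control libraries. Prpf6, a tri-snRNP component gene, was at 1153, 1183 and 163 in the CUS libraries and 0, 514 and 0 in the Control libraries. Celf2, of the CELF family, whose proteins oppose MBNL proteins on some exons, averaged 834 ± 109 in the CUS libraries and 416 ± 299 in the Control libraries (SD, n = 3 each; log2 difference 1.23, SE 0.96). The groups overlapped for Rbfox3 and Prpf6 but not for Celf2.

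On the lower side Raver2, which encodes a partner of the splicing repressor Ptbp1, averaged 386 ± 171 in the CUS libraries and 1235 ± 569 in the Control libraries (SD, n = 3 each; log2 difference -1.58, SE 0.85). Luc7l2, a U1 snRNP-associated factor gene, was at 251, 204 and 0 in the CUS libraries and 369, 744 and 729 in the Control libraries. Smu1, a spliceosome activation factor gene, was at 0, 0 and 193 in the CUS libraries and 695, 391 and 0 in the Control libraries. The limma adjusted p was 0.922 for each of the 3, as it was for Prpf6 and Celf2. Of the 10 SR kinases listed beside Srpk2, 5 had a circRNA and 1 was fitted, against 65 and 32 of the 176 genes in all 6 lists.

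**Figure D4:**
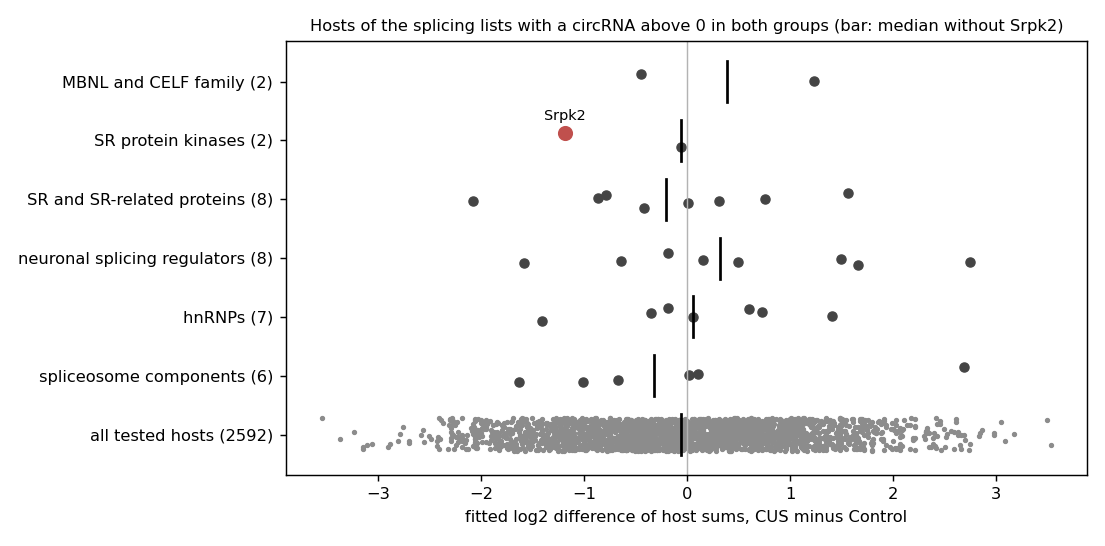
Fitted log2 difference of host sums, CUS minus Control, for each fitted host of the 6 splicing lists (1 point per host, number in brackets) and for the 2592 fitted hosts of the whole table with a value in both groups. Bars mark medians, which leave out Srpk2 in the rows of the splicing lists and include it in the row of all hosts. Srpk2 is at -1.18, and Srrm2 is not drawn because it is listed at 0 in all CUS libraries.

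Profiles over the 6 libraries were compared among hosts with at least 50% of the member's mean sum, by the root mean square difference between log2 profiles centred on their own means. The most alike to Srpk2 among 553 hosts were Tenm3, a teneurin adhesion protein gene (0.31), and Mnat1, which encodes an assembly factor of the CDK-activating kinase (0.33), against a median of 0.98. Tenm3 was at 2084, 2676 and 2177 in the CUS libraries and 3942, 3926 and 6936 in the Control libraries, and Mnat1 at 1082, 1452 and 2449 in the CUS libraries and 1943, 2181 and 3572 in the Control libraries. Like Srpk2, both were highest in Control replicate 3. The most alike to Srrm2 were Ktn1 (0.28) and Pde4a (0.30), both also listed at 0 in all CUS libraries. Those to Mbnl1 were Hdac2 (0.19) and Msh3 (0.21), both highest in CUS replicate 1 and Control replicate 2. Unlike Mbnl1, both had values in all 6 libraries and at higher levels. Hdac2 was at 1565, 304 and 247 in the CUS libraries and 290, 1417 and 298 in the Control libraries. These are descriptions over 6 libraries. The hosts were picked for their likeness, so the shared zeros and peaks and the distances under the median follow from that choice.

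Markers of cell types were read from host sums in the same table. Neuronal markers had a circRNA for 13 of 15 genes, with summed levels of 11294 to 14234 in CUS and 7698 to 16113 in Control, and hippocampal field markers for 9 of 14, at 10198 to 11338 in CUS and 9193 to 14805 in Control. Oligodendrocyte markers had one for 8 of 16 genes, at 2721 to 4298 in CUS and 1992 to 2397 in Control, with Mog and Mag at 0. Astrocyte markers had one for 4 of 14, at 1709.7 to 2642 in CUS and 1085 to 1525 in Control, with Gfap and Aqp4 at 0. Among the 6 marker lists, only the oligodendrocyte and astrocyte sums did not overlap between groups, with CUS above Control. For single hosts, every CUS library was above every Control library in 5.84% of those tested. Microglial markers had one for 1 of 12 genes (Mertk; 0 to 275 in CUS, 208 to 1714 in Control) and vascular markers for 2 of 12 (0 to 233 in CUS, 0 to 277 in Control), with Cx3cr1 and Cldn5 at 0. The part of these levels, and of the larger steps of the CUS libraries, in the Srpk2 and Srrm2 values was not tested.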

How the data were processed

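The authors deposited 1 table of circRNA identifiers, Ensembl host identifiers, a class and 1 log10 value per library, with 0 where a circRNA has no value. The header names no unit. The submitters' processing notes name mm9, StringTie, DESeq and edgeR but not what each was used for; no source used here names the circRNA caller. Per the labels' protocols, libraries were poly(A)-selected, stranded and carried molecular identifiers.

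Levels are 10 to the deposited log10 value. In each library 100% of values under 300 steps lay within 0.05 of a whole multiple of its step. Host sums add all circRNAs that list a host; 4467 of 4483 host identifiers matched GENCODE vM21 (GRCm38), used for names and gene positions. CircRNAs and hosts above 0 in at least 3 of 6 libraries were fitted with limma 3.58.1 in R 4.3.3, using lmFit and then eBayes with a variance trend, on log2(level + 45.5), over the whole table, with Benjamini-Hochberg adjustment at 0.05. Fold changes on this scale understate those of low circRNAs. The fit was tested on simulated Gaussian values. These lacked the many values listed at 0 in the real table, so that test does not cover them. Python 3.11.15, numpy 2.4.6, pandas 2.3.3 and matplotlib 3.10.9 made tables and figures.

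The members and gene lists were chosen with earlier results of these data known. Named circRNAs were those of the 3 hosts. Named splicing hosts were the 3 of highest mean, the 3 higher and 3 lower of smallest p, and the paralogs. For each host the 2 most alike profiles were named. Alternatives covered the pseudocount, filter, trend, scaling, replicate block, host assignment and leaving out each library.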

Additional observations from a re-analysis of the deposited data

How the results depend on the processing

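Under all 14 alternatives for circRNAs and all 15 for host sums, 0 were called by limma. With the replicate number as a block the counts were also 0 and 0. Each number occurs in both groups, so the block cannot change the Srpk2 log2 difference of -1.18. The SE of that difference was 0.53 with the block and 0.52 without it. Deviations of same-numbered CUS and Control libraries were uncorrelated (r = -0.0109, -0.0252 and -0.0204), and no library correlated best with its own number, so the numbers were not taken as pairs. Over the 15 alternatives the Srpk2 difference ran from -1.42 without Control replicate 2 to -0.82 without Control replicate 3. Every CUS sum lay under every Control sum, so no pseudocount or left-out library could change its sign. Over 14 alternatives the difference of mmu_circRNA007868 ran from -0.99 without CUS replicate 3 to -0.26 without CUS replicate 1. The filter, trend, block and host assignment could not move either difference, so its sign under them is no support. Without the variance trend the SE was 0.73 for Srpk2 and 0.90 for mmu_circRNA007868, against 0.52 and 0.60 with it. Fitted differences of circRNAs and hosts listed at 0 in all CUS libraries move with the pseudocount and are not given. Srrm2 could not be fitted without any 1 of the Control libraries or when a value in all 6 was required. The Mbnl1 host sum could be fitted only without the filter, with a log2 difference of 0.09 and an SE of 1.17. Depth is unknown, so no counting error could be given for any value.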
